A study of Sus scrofa with 24 samples.

Results

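The data describe MYC and the genes that build ribosomes in cultured cells of the porcine medial meniscus. The genes were taken from a list of 44 symbols, and a listed gene was included when the count table named it and at least 1 library held 10 or more reads of it. This left 41 genes among the 13653 genes tested, of 25880 in the table. The symbols NOP56, NOP16 and NHP2 are not used as gene names in the table.

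The series held 24 libraries of cells from skeletally mature female pigs, with 3 libraries in each of 8 groups. Cells came from the inner or the outer zone of the meniscus, were pooled from 3 or more menisci, expanded for one passage and plated at 250000 cells per well on flexible plates coated with collagen type I. About 40 h later fresh medium was added, with or without the inflammatory cytokine interleukin 1α (IL-1α) at 0.1 ng/mL, and cells were either left unstretched or given a sinusoidal 5% cyclic stretch at 0.5 Hz for a single 4 h bout before RNA was taken. Each zone therefore had a control group, a stretched group, an IL-1α group and a group with both. All groups share passage, coating and medium change. Because cells were pooled before plating, the p-values measure the spread between wells and not between animals. The plate code in the sample titles differed between the 4 treatments (P61 to P64) and was shared by both zones within a treatment, so plate code and treatment cannot be told apart.

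A ribosome is assembled mainly in the nucleolus. RNA polymerase I transcribes a long precursor of the ribosomal RNAs, small nucleolar ribonucleoproteins (snoRNPs) guide its chemical modification, and a large set of processing factors, helicases and GTPases cut and fold the RNA while ribosomal proteins join to form the small and the large subunit. MYC is a transcription factor that pairs with MAX, binds the E-box sequence CACGTG and is known to raise the transcription of many genes of this process. Meniscus fibrochondrocytes make an abundant collagen-rich matrix, and matrix production depends on protein synthesis by ribosomes.

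Library totals ran from 25377054 to 35284474 reads assigned to genes. Levels are given as CPM (the usual read count per unit of library size, the library sizes being scaled with the trimmed mean of M-values, TMM), and differences as log2 fold changes ± SE from edgeR's quasi-likelihood test with Benjamini-Hochberg adjustment over the 13653 genes. A gene rose or fell when its adjusted p was under 0.05, whatever the size of the change. All 8 fibrochondrocyte markers were detected, with a summed level of 77235 to 101486 CPM per library. Most of this sum was COL1A1 and COL1A2. Group means of ACAN were 171 to 495 CPM, of COMP 78.4 to 396, of SOX9 10.6 to 20.1 and of COL2A1 5.28 to 39.8 CPM. Markers of other cells were low beside the sum. PECAM1 was the 1 endothelial marker of 6 that was tested (4.81 to 9.39 CPM), with VWF, CDH5, KDR and TEK under 10 reads in every library, and no adipocyte marker was tested. The 5 leukocyte markers tested of 7 summed to 19.2 to 44.1 CPM, with PTPRC and CD3E under 10 reads. This leukocyte sum was higher in the IL-1α groups of each zone (26.2 to 31.1 CPM against 19.2 to 19.6 CPM in inner zone controls, and 40.7 to 44.1 CPM against 22.5 to 25.2 CPM in outer zone controls), and its part in the results on the 41 genes was not tested. The 4 mural markers tested of 6, mostly CSPG4, with RGS5 under 10 reads, summed to 276 to 293 CPM in inner zone controls, 367 to 399.9 after stretch, 202 to 208 with IL-1α and 289.9 to 297 with both, and to 215 to 231, 329 to 354, 125 to 147 and 197 to 229 CPM in outer zone cells. Their part was not tested either.

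As RefSeq places them on Sscrofa11.1, 14 of the 41 genes overlap a gene on the opposite strand, among them BOP1 with SCX, WDR75 with COL5A2 and POLR1C with XPO5. The strand setting used for counting is not given in the sources used here, so reads of such neighbours may have been shared.

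Across the 41 genes together, levels were higher with IL-1α than in controls and were intermediate after stretch alone. The summed level was 4143 ± 64.4 CPM (SD, n = 3) in inner zone controls, 4595 ± 136 CPM after stretch, 5895 ± 194 CPM with IL-1α and 5873 ± 109.8 CPM with both. In outer zone cells the corresponding sums were 4322 ± 34.3, 4709 ± 82.8, 5721 ± 143 and 6008 ± 232 CPM. In each zone no library without IL-1α reached the sum of any library with it. NCL and NPM1 supplied a large part of these reads, and without them the order of the inner zone sums had the group with both treatments (3664 ± 69.2 CPM) and the IL-1α group (3657 ± 120.1 CPM) within 1 SD of each other. In these bulk RNA samples, a larger share of reads per cell and a change in the number of cells of a type cannot be told apart.

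Gene by gene, the lowest of the 8 group means fell in inner zone controls for 27 of the 41 genes and in outer zone controls for 8, whereas 15.2% and 10.4% of all tested genes had their lowest mean there. The highest group mean fell in the outer zone group with both treatments for 13 genes, in the inner zone IL-1α group for 12, in the inner zone group with both treatments for 7 and in the outer zone IL-1α group for 6. For all tested genes these 4 shares were 8.65%, 13.2%, 9.21% and 17.4%.

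MYC, the regulator itself, had the largest change of the 41 genes with IL-1α. It lies on chromosome 4 (chr4:12455141-12460360, minus strand, RefSeq on Sscrofa11.1). MYC stood at 59.6, 63.6 and 61.9 CPM in the 3 inner zone controls and at 133, 144 and 119.6 CPM with IL-1α. Outer zone controls held 75.0, 84.1 and 83.9 CPM of MYC, and outer zone cells with IL-1α 164, 156 and 140.1 CPM. The IL-1α libraries of each zone lay above all controls, with log2 fold changes of 1.10 ± 0.08 in inner zone cells (edgeR adjusted p = 1.72e-11) and 0.92 ± 0.08 in outer zone cells (edgeR adjusted p = 2.74e-10).

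Stretch moved MYC one way without IL-1α and the other way with it. After stretch alone MYC was at 70.8, 73.1 and 78.4 CPM in inner zone cells and at 93.0, 102 and 86.9 CPM in outer zone cells, above every control of the same zone. The log2 fold changes were 0.26 ± 0.08 (edgeR adjusted p = 0.0172) and 0.21 ± 0.08 (edgeR adjusted p = 0.0488). The inner zone call was lost without inner zone stretched replicate 3 or inner zone control replicate 1 (log2 0.22 to 0.24), and the outer zone call without any 1 of outer zone stretched replicate 4 or 5 and outer zone control replicate 4, 5 or 6 (log2 0.15 to 0.24). In cells given both treatments MYC was at 91.9, 89.9 and 92.5 CPM in the inner zone and 110.4, 103 and 124 CPM in the outer zone, below all libraries with IL-1α alone. Stretch in the presence of IL-1α thus lowered MYC by a log2 fold change of -0.53 ± 0.08 in inner zone cells (edgeR adjusted p = 6.05e-06) and -0.45 ± 0.07 in outer zone cells (edgeR adjusted p = 5.52e-05). The interaction term, the stretch effect with IL-1α minus the stretch effect without it, was -0.79 ± 0.11 for MYC in the inner zone (edgeR adjusted p = 8.97e-06) and -0.66 ± 0.11 in the outer zone (edgeR adjusted p = 0.000117). Even so, stretched cells with IL-1α held more MYC than stretched cells without it, by 0.30 ± 0.08 and 0.26 ± 0.07 on the log2 scale (edgeR adjusted p = 0.00184 and 0.00492). Under upper-quartile scaling these last differences were 0.17 and 0.13 and did not pass the test.

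Ordered by group mean, MYC was lowest in inner zone controls (61.7 ± 2.01 CPM), followed by inner zone stretch (74.1 ± 3.90), outer zone controls (81.0 ± 5.20), inner zone cells with both (91.4 ± 1.39), outer zone stretch (93.9 ± 7.49), outer zone cells with both (112 ± 10.5), inner zone IL-1α (132 ± 12.1) and outer zone IL-1α (153 ± 12.4 CPM, SD, n = 3). In this order the libraries of inner zone stretch and outer zone controls overlapped, as did those of inner zone cells with both and outer zone stretch, and those of each of the last 3 groups with the next.

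**Figure D1:**
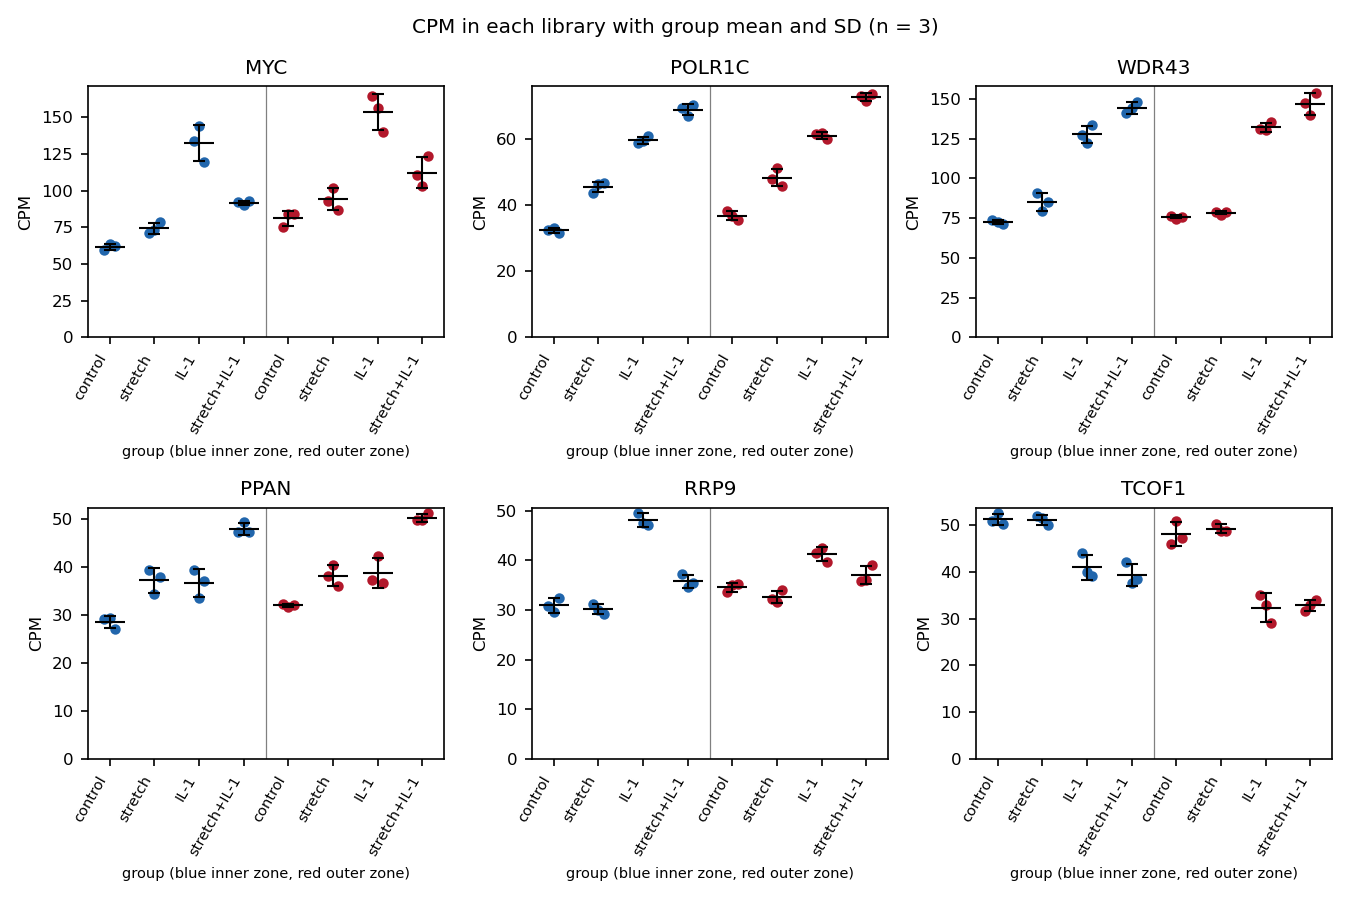
Level in CPM (vertical axes, starting at 0) of 6 of the genes in each of the 24 libraries, by group, with inner zone libraries in blue and outer zone libraries in red. Points are libraries and black bars give the mean and SD of 3. MYC, POLR1C, WDR43 and RRP9 were higher with IL-1α than in controls of the same zone and TCOF1 was lower, and PPAN was highest in both zones with stretch and IL-1α together.

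Because MYC and MAX bind the E-box, the region from 250 bases before to 50 bases after the RefSeq start of each gene was searched for CACGTG, which reads the same on both strands. The 6 letters occurred in 6 of the 41 genes (14.6%) and in 1578 of 20641 protein-coding genes (7.64%). A match is a description of the letters in this window and not a site of binding. MYC itself had none in this window. The 30 bases around each match follow, 5′ to 3′ on the strand of the gene with the E-box in capitals, because these are the genes of the group whose start regions hold the MYC recognition letters.
UTP20: gcttcttcctccCACGTGacccgctcaggc
WDR43: cgcacgggcgaaCACGTGgctgccgcggag
WDR75: aggaccggtggtCACGTGacacagtttggt
RRP9: gggtttagccgcCACGTGagttcctcggtg
RRP12: gggctgcggaccCACGTGggtcctgcgcgt
MRTO4: cgccttccgccgCACGTGgctgcgacgcga
They lie on Sscrofa11.1 at chr5:82913167-82913196 (minus strand, UTP20), chr3:110365072-110365101 (minus, WDR43), chr15:93980883-93980912 (plus, WDR75), chr13:34075368-34075397 (minus, RRP9), chr14:108805460-108805489 (minus, RRP12) and chr6:77747813-77747842 (plus, MRTO4). With IL-1α in inner zone cells these 6 genes changed by 0.59, 0.82, 0.05, 0.64, 0.71 and 0.54 on the log2 scale in that order, so that 5 of them rose and WDR75 did not pass the test (edgeR adjusted p = 0.474). Over all 41 genes this difference ran from -0.32 to 1.10, and 39 of the 41 rose, against 32.6% of all tested genes. The 5 of 6 is thus no larger a share than that of the whole group.

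IL-1α in unstretched cells raised most of the 41 genes in both zones. In inner zone cells 39 rose and 1 fell, when 32.6% of all tested genes were higher and 32.8% lower. The outer zone had 34 that rose and 1 that fell, against 31.1% and 33.5% of all genes. The median log2 fold change over the 41 genes was 0.49 and 0.36, beside -0.03 and -0.04 over all genes. The changes were modest in size, and MYC in inner zone cells was the 1 gene of 41 that was past 2-fold. Upper-quartile scaling moved the median of all genes to -0.20 in the inner zone and -0.22 in the outer zone, and then called 21.7% of all genes higher and 48.4% lower in inner zone cells and 21.1% and 50.1% in outer zone cells. With it the calls among the 41 genes were 32 higher and 1 lower in the inner zone and 23 higher and 6 lower in the outer zone. Single calls under this scaling were followed only for the genes whose values in every library are given. Small increases of other genes, such as POLR1B, BOP1, FBL and NOP14, may therefore not hold under it. The distance between the median of the 41 genes and that of all genes was 0.51 and 0.40 with TMM and 0.51 and 0.40 with upper-quartile scaling. A change of scaling shifts all genes by about the same amount. This distance could therefore hardly change, and its equality is not a check of the result.

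**Figure D2:**
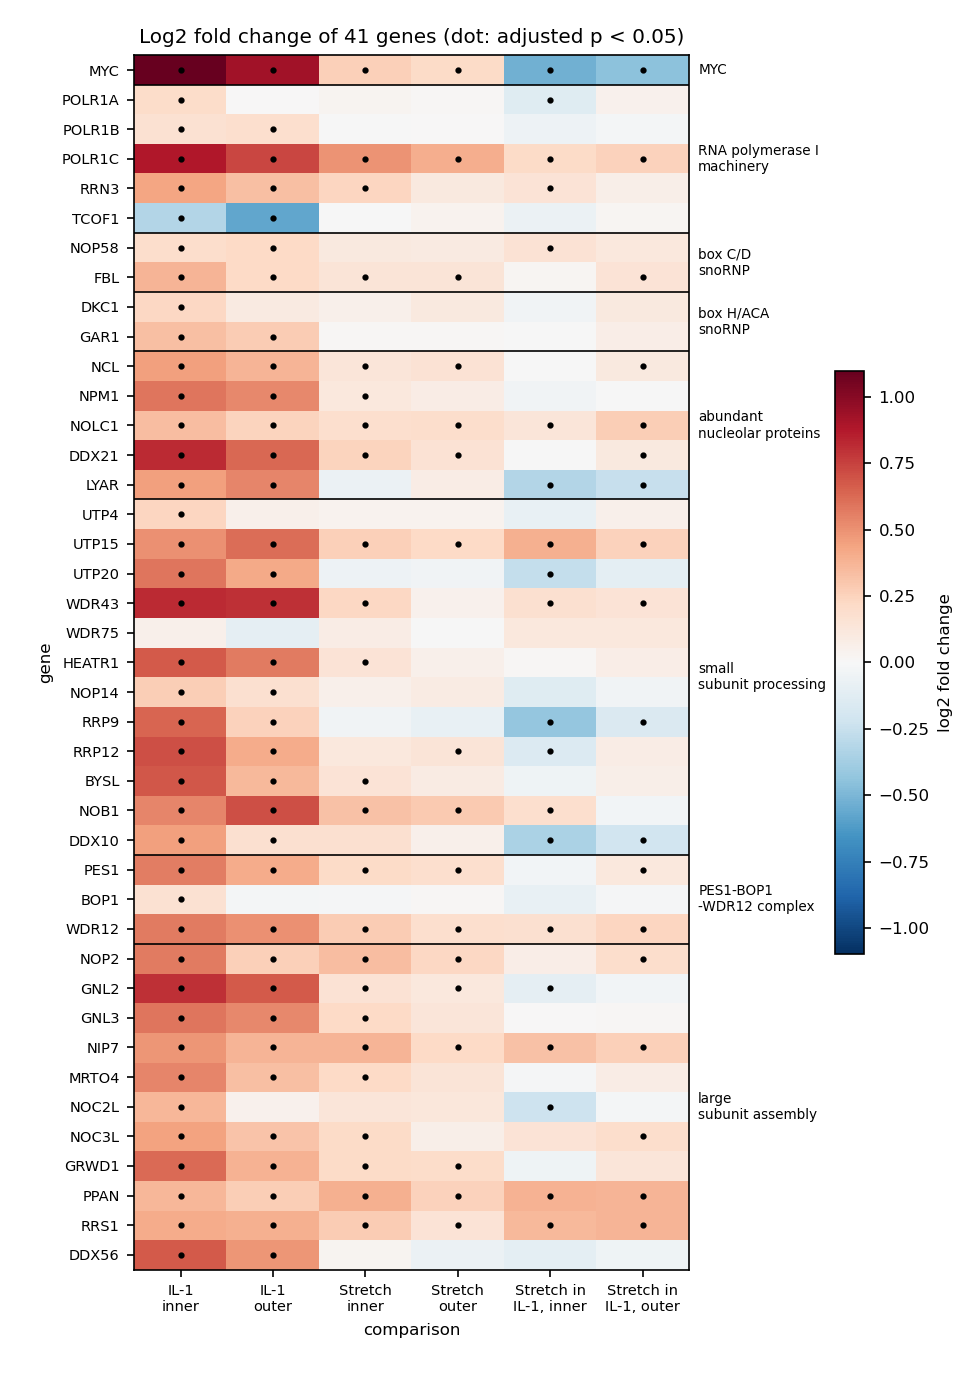
Log2 fold change (colour scale, red higher and blue lower) of the 41 genes, in rows grouped by role, for 6 comparisons in columns. A dot marks an adjusted p under 0.05. With IL-1α 39 genes rose in inner and 34 in outer zone cells, whereas the columns for stretch during IL-1α hold both colours.

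Of the RNA polymerase I machinery, 4 of 5 genes rose with IL-1α in inner zone cells and 3 of 5 in outer zone cells, and TCOF1 fell in both. The shares of all tested genes that were higher were 32.6% and 31.1%. POLR1C, a subunit shared by RNA polymerases I and III, was at 32.3, 32.9 and 31.6 CPM in inner zone controls, 43.6, 46.2 and 46.5 CPM after stretch, 58.8, 59.2 and 60.7 CPM with IL-1α and 69.4, 67.0 and 70.1 CPM with both. The outer zone series for POLR1C ran 38.1, 36.7 and 35.4, then 47.95, 51.1 and 45.8, then 61.4, 61.7 and 59.8, then 73.1, 71.4 and 73.6 CPM. Within each zone these 4 groups did not overlap. IL-1α raised POLR1C by 0.88 ± 0.05 and 0.73 ± 0.05 on the log2 scale in inner and outer zone cells (edgeR adjusted p = 2.64e-18 and 4.02e-16), and stretch alone raised it by 0.49 ± 0.05 and 0.40 ± 0.05 (edgeR adjusted p = 4.27e-10 and 3.42e-08), the largest stretch response of the 41 genes in each zone. Stretch during IL-1α added 0.21 ± 0.04 and 0.25 ± 0.04 (edgeR adjusted p = 0.000271 and 2.13e-05), and the interaction passed the test in the inner zone (-0.28 ± 0.06, edgeR adjusted p = 0.00115) but not in the outer zone (-0.14 ± 0.06, edgeR adjusted p = 0.158).

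TCOF1, which encodes treacle, a nucleolar phosphoprotein that acts with the Pol I factor UBF on ribosomal DNA, went the other way. TCOF1 stood at 50.9, 52.6 and 50.1 CPM in inner zone controls and 44.02, 39.9 and 39.1 CPM with IL-1α. Its outer zone levels were 45.9, 50.9 and 47.3 CPM in controls and 35.1, 32.9 and 29.0 CPM with IL-1α. No IL-1α library of either zone reached its controls, and TCOF1 fell by a log2 fold change of -0.32 ± 0.06 in inner zone cells (edgeR adjusted p = 8.43e-06) and -0.57 ± 0.06 in outer zone cells (edgeR adjusted p = 1.54e-10). Stretched cells showed TCOF1 at 42.1, 37.5 and 38.4 CPM with IL-1α in the inner zone and 31.7, 32.8 and 34.0 CPM in the outer zone, and stretch itself gave no call for it in any of the 4 stretch comparisons.

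POLR1A, the catalytic subunit, and RRN3, which brings RNA polymerase I to its promoter, were less uniform. POLR1A was at 90.0, 87.9 and 88.7 CPM in inner zone controls and 106, 97.9 and 102 CPM with IL-1α (0.20 ± 0.05 on the log2 scale, edgeR adjusted p = 0.000448), but this call was lost with upper-quartile scaling (0.02, adjusted p = 0.722). In outer zone cells POLR1A overlapped between controls (93.8, 95.98 and 100.1 CPM) and IL-1α (99.8, 101 and 89.6 CPM), with a difference of 0.00 ± 0.05. RRN3 rose from 47.6, 47.2 and 48.4 to 64.3, 60.4 and 68.1 CPM with IL-1α in inner zone cells (0.43 ± 0.05, edgeR adjusted p = 5.44e-09). Outer zone RRN3 went from 46.0, 42.8 and 43.8 to 53.3, 58.2 and 55.8 CPM (0.33 ± 0.05, edgeR adjusted p = 1.04e-06), again without overlap. POLR1B, the second largest subunit, rose by 0.17 ± 0.05 and 0.18 ± 0.05 (edgeR adjusted p = 0.00222 and 0.000854) and gave no call for stretch. Its calls were not followed singly under upper-quartile scaling.

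Among the snoRNP proteins, NOP58, FBL and GAR1 rose with IL-1α in both zones and DKC1 was called in inner zone cells, but the zone difference in its response did not pass the test (0.13 ± 0.06, edgeR adjusted p = 0.226). NOP58, a core protein of the box C/D particles that methylate ribosomal RNA, was at 147, 138 and 141 CPM in inner zone controls and 161, 154 and 173 CPM with IL-1α. Its outer zone values were 130.2, 120.4 and 123 and 142, 147 and 145 CPM. The groups did not overlap in either zone (0.19 ± 0.05 and 0.22 ± 0.05 on the log2 scale, edgeR adjusted p = 0.00044 and 0.000118), but both calls were lost with upper-quartile scaling (0.02 and 0.04). FBL, the methyltransferase of these particles, rose by 0.37 ± 0.05 and 0.22 ± 0.05 (edgeR adjusted p = 1.88e-08 and 0.000119). DKC1, the pseudouridine synthase of the box H/ACA particles, was at 97.3, 89.9 and 92.8 CPM in inner zone controls and 111, 103 and 114 CPM with IL-1α, which did not overlap (0.23 ± 0.05, edgeR adjusted p = 3.85e-05, and 0.05 with adjusted p = 0.306 under upper-quartile scaling). Outer zone DKC1 overlapped between controls (90.6, 95.0 and 98.2 CPM) and IL-1α (101, 107 and 96.1 CPM) and was not called (0.10 ± 0.05). GAR1, its partner, rose in both zones (0.33 ± 0.06 and 0.28 ± 0.06, edgeR adjusted p = 3.7e-06 and 6.1e-05).

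All 5 genes of the nucleolar protein group (NCL, NPM1, NOLC1, DDX21 and LYAR) rose with IL-1α in both zones, with log2 fold changes of 0.34 to 0.82 in inner and 0.25 to 0.63 in outer zone cells. Of all tested genes, 32.6% and 31.1% were higher. NCL (nucleolin), which binds nascent ribosomal RNA, was at 909, 887 and 886 CPM in inner zone controls and 1251, 1159 and 1254 CPM with IL-1α. Outer zone NCL was at 842, 847 and 887 CPM and 1135, 1115 and 1097 CPM. These groups were apart in both zones (0.45 ± 0.04 and 0.38 ± 0.04 on the log2 scale, edgeR adjusted p = 3.18e-13 and 2.56e-11). The RNA helicase DDX21 rose most in this group (0.82 ± 0.04 and 0.63 ± 0.04, edgeR adjusted p = 4.69e-20 and 7.75e-17). NPM1 (nucleophosmin) rose by 0.59 ± 0.04 and 0.53 ± 0.04, and NOLC1, a snoRNP chaperone, by 0.34 ± 0.04 and 0.25 ± 0.04 (largest of these 4 edgeR adjusted p = 8.11e-06). LYAR, a nucleolar zinc finger protein, was at 29.9, 28.4 and 28.7 CPM in inner zone controls, 39.8, 38.3 and 40.4 CPM with IL-1α and 33.3, 28.4 and 32.9 CPM with both. Its outer zone values in the same 3 groups were 23.4, 21.3 and 21.1, 33.8, 34.0 and 27.7 and 25.8, 27.9 and 26.3 CPM. LYAR rose with IL-1α (0.45 ± 0.07 and 0.54 ± 0.07, edgeR adjusted p = 5.39e-07 and 3.88e-08) and fell with stretch during IL-1α (-0.32 ± 0.07 and -0.25 ± 0.07, edgeR adjusted p = 0.000256 and 0.00581). The latter groups overlapped in the outer zone, where the call was lost without outer zone IL-1α replicate 5 (log2 -0.20).

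Small subunit processing factors rose with IL-1α in 11 of 12 cases in inner and 10 of 12 in outer zone cells, against 32.6% and 31.1% of all tested genes. WDR43, a component of the complex that engages the nascent precursor RNA, was at 73.6, 72.6 and 71.3 CPM in inner zone controls and 127, 122 and 133 CPM with IL-1α. Outer zone WDR43 was at 76.6, 74.8 and 75.8 CPM and 131, 130.2 and 136 CPM. The increases were 0.82 ± 0.04 and 0.81 ± 0.04 on the log2 scale (edgeR adjusted p = 4.95e-18 and 6.98e-18) and every IL-1α library lay above every control. UTP15, of the same complex, stood at 38.7, 39.5 and 39.2 CPM in inner zone controls, 54.6, 51.9 and 59.7 CPM with IL-1α and 65.8, 75.0 and 77.0 CPM with both. Its outer zone values in the same 3 groups were 39.5, 39.2 and 39.0, 59.4, 61.3 and 59.96 and 71.0, 67.5 and 76.3 CPM. None of these groups overlapped within a zone, and UTP15 rose both with IL-1α (0.50 ± 0.06 and 0.62 ± 0.06, edgeR adjusted p = 3.62e-09 and 3.09e-11) and with stretch during IL-1α (0.39 ± 0.06 and 0.25 ± 0.06, edgeR adjusted p = 1.31e-06 and 0.000906). HEATR1, also of this complex, rose with IL-1α by 0.68 ± 0.05 and 0.57 ± 0.05 (edgeR adjusted p = 1.38e-13 and 8.31e-12). UTP4 was called in the inner zone alone (0.23 ± 0.05, edgeR adjusted p = 3.77e-05, against 0.05 ± 0.05), a difference between zones that missed the test (edgeR adjusted p = 0.0783). WDR75, the remaining member of the complex, was called in neither zone (0.05 ± 0.06 and -0.10 ± 0.06).

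RRP9, the protein particular to the U3 snoRNP, rose with IL-1α and fell when stretch was added to it. RRP9 was at 30.9, 29.5 and 32.4 CPM in inner zone controls, 31.1, 30.1 and 29.1 CPM after stretch, 49.6, 47.6 and 47.1 CPM with IL-1α and 37.3, 34.7 and 35.4 CPM with both. Outer zone RRP9 was at 33.6, 35.0 and 35.2, 32.1, 31.7 and 34.0, 41.5, 42.5 and 39.7 and 35.9, 35.9 and 39.1 CPM in the same order. Control and stretch libraries overlapped in both zones, and the IL-1α libraries stood above all others of their zone. IL-1α raised RRP9 by 0.64 ± 0.05 in the inner zone and 0.25 ± 0.05 in the outer zone (edgeR adjusted p = 3.5e-13 and 5.83e-05). With IL-1α present, stretch lowered it, with log2 fold changes of -0.43 ± 0.05 and -0.16 ± 0.05 (edgeR adjusted p = 2.26e-08 and 0.0205), the outer zone call being lost without any 1 of outer zone stretch and IL-1α replicate 4 or 5 and outer zone IL-1α replicate 4 or 5 (log2 -0.15 to -0.13). Upper-quartile scaling left the IL-1α difference of RRP9 in outer zone cells at 0.07 (adjusted p = 0.215) and the outer zone stretch difference at -0.10 (adjusted p = 0.126).

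DDX10, an RNA helicase, had a like pattern in inner zone cells. It was at 21.7, 20.6 and 20.4 CPM in controls, 24.4, 22.2 and 24.4 CPM after stretch, 28.5, 27.0 and 30.1 CPM with IL-1α and 22.7, 22.4 and 22.2 CPM with both. The IL-1α libraries did not overlap with those of both treatments, and stretch lowered DDX10 when IL-1α was present, with a log2 fold change of -0.35 ± 0.07 (edgeR adjusted p = 0.000133), with an interaction of -0.53 ± 0.10 (edgeR adjusted p = 0.000115). Outer zone DDX10 was at 21.9, 22.9 and 23.0, 26.0, 22.9 and 21.6, 25.6, 27.4 and 23.6 and 22.4, 19.8 and 23.6 CPM in the same order. There the difference with IL-1α was 0.17 ± 0.07 (edgeR adjusted p = 0.0287), was lost without any 1 of outer zone control replicate 4 and outer zone IL-1α replicate 4 or 5 (log2 0.12 to 0.17) and was -0.01 with upper-quartile scaling. Stretch during IL-1α gave -0.21 ± 0.07 in the outer zone (edgeR adjusted p = 0.0198), a call lost without outer zone stretch and IL-1α replicate 5 or outer zone IL-1α replicate 5 (log2 -0.16 to -0.15) and with upper-quartile scaling (-0.16, adjusted p = 0.0754).

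Factors of later small subunit maturation were also called. RRP12, which takes part in export of the subunit precursors, was at 83.9, 80.0 and 83.1 CPM in inner zone controls and 136, 133 and 135 CPM with IL-1α. Outer zone RRP12 was at 94.2, 98.9 and 106 and 139.9, 132 and 126 CPM. It rose without overlap by 0.71 ± 0.05 and 0.41 ± 0.05 (edgeR adjusted p = 1.08e-14 and 5.79e-09). BYSL, a factor of small subunit maturation, went from 66.4, 63.8 and 63.1 to 105.2, 102 and 104 CPM in inner zone cells and from 69.5, 72.6 and 71.5 to 92.8, 94.8 and 86.0 CPM in outer zone cells, also without overlap (0.69 ± 0.05 and 0.36 ± 0.05, edgeR adjusted p = 1.13e-14 and 5.99e-08). NOB1, the endonuclease that makes the last cut at the 3′ end of 18S ribosomal RNA, was at 56.1, 51.6 and 52.4 CPM in inner zone controls, 62.6, 68.1 and 69.7 CPM after stretch and 79.7, 73.3 and 79.0 CPM with IL-1α. Its outer zone values were 52.3, 50.2 and 50.6, 61.3, 64.8 and 61.02 and 83.5, 87.0 and 79.8 CPM. Each step was free of overlap, with 0.54 ± 0.05 and 0.71 ± 0.05 for IL-1α (edgeR adjusted p = 4.04e-12 and 2.68e-15) and 0.32 ± 0.05 and 0.29 ± 0.05 for stretch alone (edgeR adjusted p = 2.85e-06 and 1.82e-05). UTP20 and NOP14, both of the small subunit processome, rose with IL-1α in both zones, by 0.59 ± 0.07 and 0.41 ± 0.07 and by 0.27 ± 0.07 and 0.18 ± 0.07 (largest of these 4 edgeR adjusted p = 0.0205).

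In the PES1-BOP1-WDR12 complex, which is needed to process the RNAs of the large subunit, PES1 and WDR12 rose with either treatment and BOP1 was called with IL-1α in inner zone cells. PES1 was at 120.1, 115 and 113 CPM in inner zone controls, 134, 133 and 134 CPM after stretch and 169, 168 and 176 CPM with IL-1α. Outer zone PES1 was at 122, 132 and 128, 148, 146 and 139.9 and 176, 172 and 158 CPM in the same groups. These 3 groups stood apart in each zone, with 0.56 ± 0.04 and 0.41 ± 0.04 for IL-1α (edgeR adjusted p = 9.5e-14 and 2.49e-10) and 0.21 ± 0.04 and 0.18 ± 0.04 for stretch alone (edgeR adjusted p = 0.000415 and 0.00167). WDR12 rose by 0.57 ± 0.06 and 0.50 ± 0.06 with IL-1α and by 0.27 ± 0.06 and 0.19 ± 0.06 with stretch alone (largest of these 4 edgeR adjusted p = 0.0158). BOP1 was called with IL-1α in inner zone cells (0.16 ± 0.04, edgeR adjusted p = 0.00146) and was at -0.02 ± 0.04 in outer zone cells, with -0.02 and 0.01 for stretch alone. The zone difference in its IL-1α response missed the test (0.18 ± 0.06, edgeR adjusted p = 0.0573).

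Large subunit assembly factors rose with IL-1α in 11 of 11 cases in inner and 10 of 11 in outer zone cells, against 32.6% and 31.1% of all tested genes. The exception was NOC2L in the outer zone (0.05 ± 0.05). NOP2, a cytosine methyltransferase of the large ribosomal RNA, was at 83.7, 82.1 and 80.3 CPM in inner zone controls, 108, 96.9 and 107 CPM after stretch and 125, 114 and 126 CPM with IL-1α. Its outer zone values in the same groups were 87.4, 85.5 and 88.7, 108, 99.7 and 98.2 and 111, 108 and 95.4 CPM. Controls were below all other libraries of their zone. NOP2 rose with IL-1α by 0.57 ± 0.06 and 0.27 ± 0.06 (edgeR adjusted p = 1.31e-10 and 0.000108), of which the outer zone value was 0.09 and not called with upper-quartile scaling. The GTPase GNL2 had the largest IL-1α response of the group (0.80 ± 0.04 and 0.67 ± 0.04, edgeR adjusted p = 1.88e-19 and 2e-17). The nucleolar GTPase GNL3 (nucleostemin) rose by 0.59 ± 0.05 and 0.53 ± 0.05, and the helicase DDX56 by 0.67 ± 0.06 and 0.49 ± 0.06 (largest of these 4 edgeR adjusted p = 4.79e-09). GRWD1, MRTO4, NIP7, NOC3L and RRS1 rose by 0.40 to 0.62 in inner and 0.31 to 0.39 in outer zone cells.

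PPAN, a large subunit factor related to yeast Ssf1, rose with either treatment and was highest with both. PPAN was at 29.1, 29.3 and 27.0 CPM in inner zone controls, 39.4, 34.4 and 37.8 CPM after stretch, 39.3, 33.5 and 37.0 CPM with IL-1α and 47.3, 49.3 and 47.1 CPM with both. Outer zone PPAN was at 32.1, 31.6 and 32.1, 38.0, 40.4 and 36.0, 37.3, 42.2 and 36.5 and 49.6, 49.8 and 51.1 CPM. The stretch and IL-1α groups overlapped with each other in both zones, while the group with both stood above them all. Stretch raised PPAN by 0.39 ± 0.06 and 0.25 ± 0.06 without IL-1α (edgeR adjusted p = 9.27e-06 and 0.00182) and by 0.39 ± 0.06 and 0.38 ± 0.06 with it (edgeR adjusted p = 2.92e-06 and 5.25e-06), and IL-1α raised it by 0.37 ± 0.06 and 0.27 ± 0.06 in unstretched cells (edgeR adjusted p = 3.52e-06 and 0.000183). Upper-quartile scaling left that outer zone value at 0.09, which was not called (adjusted p = 0.169). The interaction was -0.00 ± 0.08 in the inner zone and 0.12 ± 0.08 in the outer zone (edgeR adjusted p = 0.998 and 0.416).

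Stretch without IL-1α raised some of the 41 genes and lowered none. In inner zone cells 24 rose and 0 fell, when 10.6% of all tested genes were higher and 9.29% lower, and in outer zone cells 17 rose and 0 fell, against 11% and 10.3%. The median log2 fold change of the 41 genes was 0.15 and 0.11, beside -0.00 and 0.01 over all genes. At an unadjusted p under 0.05, 0 of the 41 genes were lower in the inner zone and 0 in the outer zone, and DESeq2 called 0 lower in each zone. By role, stretch raised 9 of 11 large subunit assembly factors in inner and 6 of 11 in outer zone cells, but 0 of 2 box H/ACA proteins in either zone. After POLR1C, the largest increases in inner zone cells were those of PPAN, of NIP7, a late large subunit factor (0.38 ± 0.06, edgeR adjusted p = 7.39e-06), and of NOP2 (0.34 ± 0.06, edgeR adjusted p = 2.15e-05). In outer zone cells they were those of NOB1 and PPAN. Of the 41 genes, 16 were called in both zones, 8 in the inner zone and RRP12 in the outer zone, and the difference between zones was not tested for stretch alone. The RRP12 call was lost without any 1 of outer zone stretched replicate 4 or 5 and outer zone control replicate 4 or 5 (log2 0.10 to 0.14). The outer zone count was 11 without the outer zone stretched replicate 4.

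Stretch in the presence of IL-1α moved some of the 41 genes up and others down. In inner zone cells 11 rose and 9 fell, against 16.6% of all genes higher and 18.1% lower. In outer zone cells 14 rose and 4 fell, against 13.1% and 15.1%. The 9 lower genes of 41 are near the share over all genes, and the 4 are under it. The medians were -0.02 and 0.08, beside 0.01 and 0.01 over all genes. With upper-quartile scaling there were 13 higher and 6 lower in the inner zone (21.8% and 13.4% of all genes) and 20 higher and 2 lower in the outer zone (20.5% and 11.9%). The 8 genes that rose in both zones were NIP7, NOLC1, POLR1C, PPAN, RRS1, UTP15, WDR12 and WDR43. The outer zone call of WDR43 was lost without outer zone stretch and IL-1α replicate 6 (log2 0.12). The inner zone count of genes that rose was 7 without inner zone stretch and IL-1α replicate 3 or inner zone IL-1α replicate 2. In the outer zone it was 7 without stretch and IL-1α replicate 6 and 8 without IL-1α replicate 6, and the count that fell was 2 without stretch and IL-1α replicate 5 and 1 without IL-1α replicate 5. DDX10, LYAR, MYC and RRP9 were called lower in both zones, and the outer zone calls of DDX10, LYAR and RRP9 were each lost without 1 library, as given with these genes. A further 5 were called lower in the inner zone, namely GNL2, NOC2L, POLR1A, RRP12 and UTP20, and for none of these 5 did the zone difference in this response pass the test (smallest edgeR adjusted p = 0.0699, for RRP12). The POLR1A call was lost without any 1 of inner zone stretch and IL-1α replicate 1 or 2 and inner zone IL-1α replicate 1 or 3 (log2 -0.14 to -0.11) and the RRP12 call without inner zone stretch and IL-1α replicate 2 or inner zone IL-1α replicate 1 (log2 -0.14 to -0.12), and upper-quartile scaling lost both (-0.09 with adjusted p = 0.176 and -0.10 with adjusted p = 0.118). Single calls of GNL2, NOC2L and UTP20 were not followed in these fits. The count of lower genes in the inner zone was 6 under upper-quartile scaling and 6 to 9 when 1 library was left out. Of the 5, UTP20 (-0.26 ± 0.07, edgeR adjusted p = 0.00324) and NOC2L (-0.22 ± 0.05, edgeR adjusted p = 0.000365) had the largest decreases. RRS1, which helps to bring the 5S RNA particle into the large subunit in yeast, had one of the largest increases (0.35 ± 0.05 and 0.37 ± 0.05, edgeR adjusted p = 8.1e-07 and 3.98e-07).

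**Figure D3:**
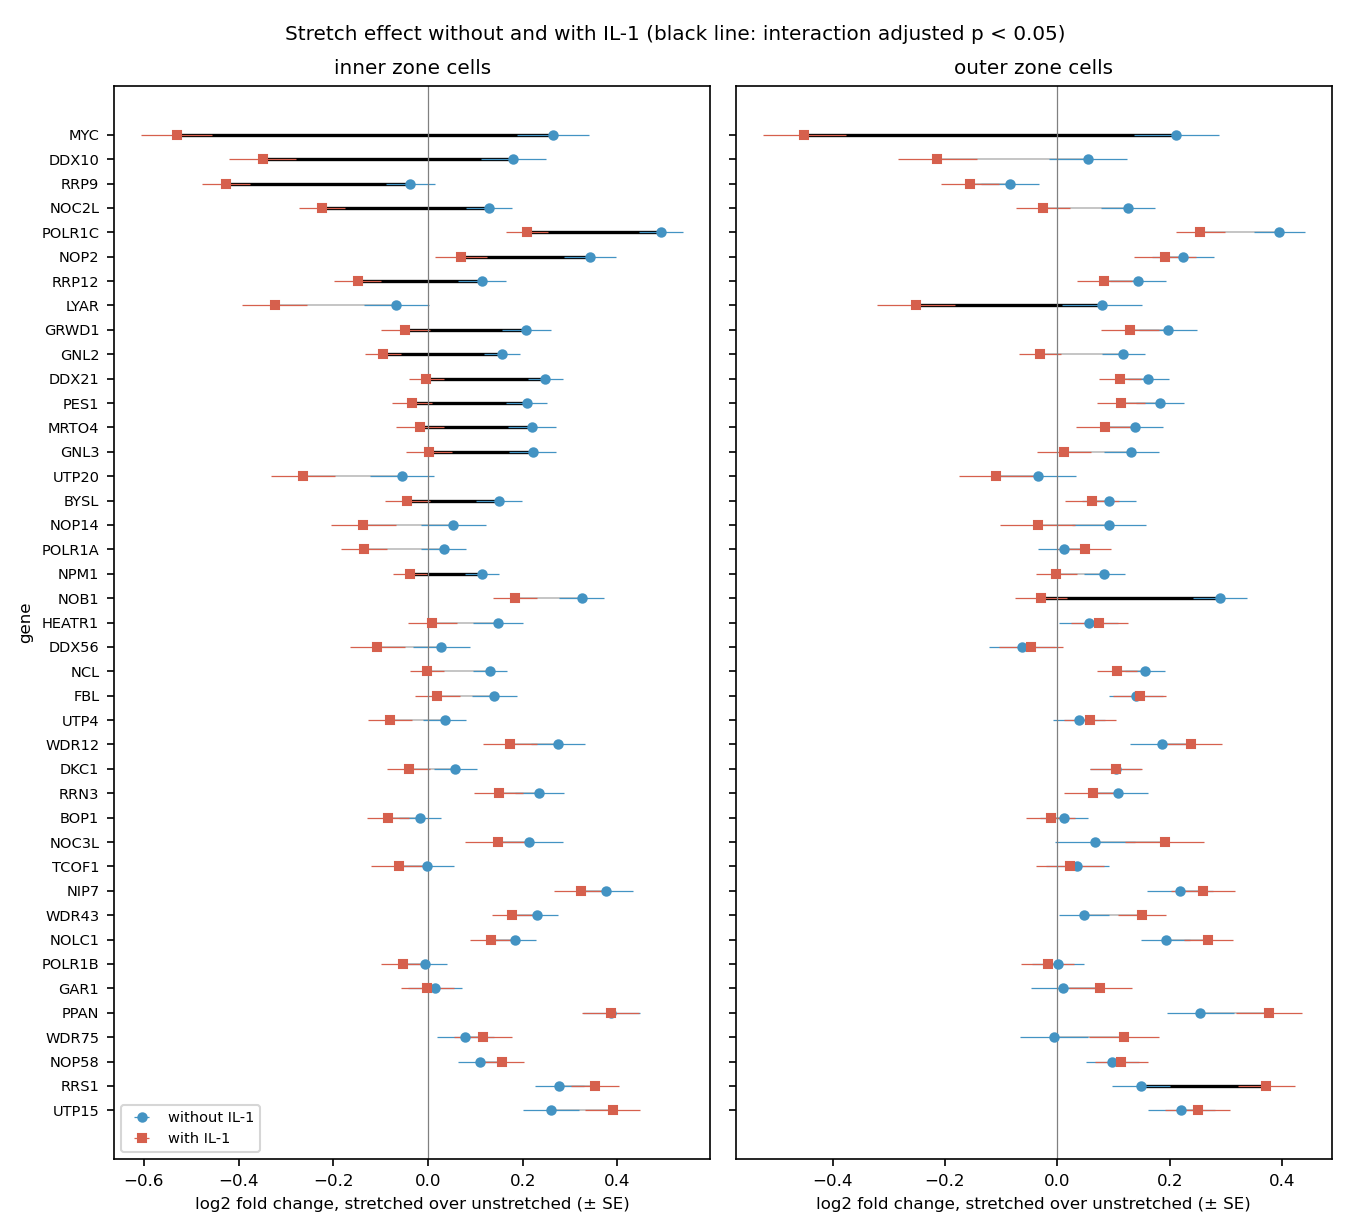
Log2 fold change of stretched over unstretched cells ± SE (horizontal axes) for the 41 genes (rows) without IL-1α (blue circles) and with IL-1α (red squares), in inner zone cells on the left and outer zone cells on the right. A black line joins the points of a gene whose interaction passed the test, which held for 15 genes in inner and 4 in outer zone cells. In each of the 15 and in 3 of the 4 the red square lies to the left of the blue circle.

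The test of this difference is the interaction term. In inner zone cells it was negative in 37 of the 41 genes, with 15 called lower and 0 called higher, against 11% of all genes lower and 8.66% higher, and a median of -0.14 beside 0.00. At an unadjusted p under 0.05, 0 genes were higher in that term, and DESeq2 called 0 higher. Outer zone cells had 3 called lower and 1 higher, against 7.76% and 5.4% of all genes, and a median of -0.03 beside 0.00. With upper-quartile scaling the split of all genes turned to 11.2% higher and 8.49% lower in inner and 7.92% higher and 6.03% lower in outer zone cells, and 11 of the 41 genes were lower and 0 higher in the inner zone and 2 lower and 1 higher in the outer zone. The 15 genes span the process, from MYC (-0.79) and POLR1C (-0.28) through NPM1 (-0.15) and DDX21 (-0.25), the small subunit factors DDX10, RRP9, RRP12 and BYSL (-0.19), and PES1 (-0.24) to 6 large subunit factors (-0.35 for NOC2L to -0.22 for GNL3). The BYSL call was lost without any 1 of inner zone stretched replicate 3, inner zone stretch and IL-1α replicate 2 or 3, inner zone control replicate 2 or 3 and inner zone IL-1α replicate 1 or 3 (log2 -0.19 to -0.14) and under upper-quartile scaling (-0.15). Single calls of DDX21, GNL2, GNL3, GRWD1, MRTO4, NOC2L and NPM1 were not followed in these fits. The inner zone count of lower genes was 11 under upper-quartile scaling and 10 to 18 when 1 library was left out. In outer zone cells the 4 genes were MYC, LYAR (-0.33 ± 0.10, edgeR adjusted p = 0.022), NOB1 (-0.32 ± 0.07, edgeR adjusted p = 0.000743) and, in the positive direction, RRS1 (0.22 ± 0.07, edgeR adjusted p = 0.035). The LYAR call was lost without any 1 of outer zone stretch and IL-1α replicate 4, outer zone control replicate 5 or 6 and outer zone IL-1α replicate 4 or 5 (log2 -0.31 to -0.28) and under upper-quartile scaling (-0.29, adjusted p = 0.0562). The 3 lower genes of 41 are near the share over all genes. The positive call was absent without any 1 of outer zone control replicate 5 or 6, stretched replicate 6, IL-1α replicate 6, or stretch and IL-1α replicate 4 or 6. The outer zone count was 2 without outer zone control replicate 5 or 6. Whether the interaction itself differed between zones was not tested.

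NOB1 was called for the interaction in outer zone cells. It was at 82.3, 79.7 and 83.2 CPM with both treatments, overlapping with IL-1α alone (83.5, 87.0 and 79.8 CPM), although stretched cells without IL-1α stood clear of controls. In inner zone cells with both treatments NOB1 reached 90.8, 85.3 and 87.5 CPM, above the IL-1α group (0.18 ± 0.05, edgeR adjusted p = 0.00202). The difference between zones in this stretch response was 0.21 ± 0.07 and did not pass the test (edgeR adjusted p = 0.0796). PES1, called for the interaction in inner zone cells, was at 177, 163 and 162 CPM there with both treatments and 169, 168 and 176 CPM with IL-1α, which overlap (-0.03 ± 0.04).

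IL-1α given to stretched cells was compared with stretch alone. Of the 41 genes, 34 were higher and 1 lower in the inner zone (27.2% of all genes higher and 26.3% lower), and 32 were higher and 1 lower in the outer zone (28.5% and 30.9%). The medians were 0.32 and 0.33, beside -0.01 and -0.03 over all genes. TCOF1 was the gene that fell in each zone (-0.38 ± 0.06 and -0.58 ± 0.06, edgeR adjusted p = 7.74e-07 and 9.52e-11). WDR43 had the largest increase (0.76 ± 0.04 and 0.91 ± 0.04, edgeR adjusted p = 3.94e-17 and 2.53e-19). The DKC1 call in inner zone cells (0.13 ± 0.05, edgeR adjusted p = 0.0136) was lost without inner zone stretch and IL-1α replicate 1 or 3 (log2 0.11) and was -0.00 under upper-quartile scaling. That scaling gave 27 that rose and 3 that fell in inner zone cells (17.6% of all genes higher and 42.4% lower) and 25 and 4 in outer zone cells (19.4% and 44.9%).

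Between the zones, differences were small and mostly lower in untreated inner zone cells. Inner zone controls had 2 of the 41 genes higher and 18 lower than outer zone controls, when 20.7% of all genes were higher and 24.3% lower, with a median of -0.11 beside -0.01. The 2 higher genes were LYAR (0.41 ± 0.07, edgeR adjusted p = 1.23e-05) and NOP58 (0.19 ± 0.05, edgeR adjusted p = 0.000898). MYC was the gene with the largest deficit (-0.39 ± 0.08, edgeR adjusted p = 0.000224), and its libraries did not overlap between the zones' controls. RRP12 (-0.28 ± 0.05, edgeR adjusted p = 2.1e-05) and DDX56 (-0.26 ± 0.06, edgeR adjusted p = 0.000605) followed. In stretched cells 5 genes were higher and 11 lower in the inner zone (20.4% and 23.7% of all genes, median -0.07 beside -0.01), but 6 and 7 with the size-factor scaling of DESeq2 in edgeR (RLE), 5 and 7 with upper-quartile scaling and 6 and 5 with DESeq2's own test, and 10 were called in all without outer zone stretched replicate 4. The lower count was 5 without that library, 6 without inner zone stretched replicate 2 and 7 without outer zone stretched replicate 5. With both treatments 6 were higher and 10 lower (23.8% and 24.4%, median -0.05 beside 0.00), and 10 were called in all without the outer zone replicate 6 that had both treatments. The lower count was then 4, and it was 6 without inner zone replicate 2 or outer zone replicate 4 with both treatments.

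With IL-1α alone 17 of the 41 genes had higher and 2 had lower levels in the inner zone (24% and 22.9% of all genes, median 0.02 beside 0.01). These counts moved between fits. They were 10 and 5 without inner zone IL-1α replicate 3, 11 and 4 without outer zone IL-1α replicate 6, and 10 and 5 when genes with at least 1 read in any library were tested. The lower count was 4 without inner zone IL-1α replicate 1, 1 without inner zone replicate 2 or outer zone replicate 4, and 0 without outer zone replicate 5. TCOF1 had the largest of these differences (0.34 ± 0.06, edgeR adjusted p = 1.33e-05), and MYC remained lower in the inner zone (-0.22 ± 0.07, edgeR adjusted p = 0.0202), a call lost without any 1 of inner zone IL-1α replicate 3 and outer zone IL-1α replicate 4 or 5 (log2 -0.20 to -0.15). Cell cycle genes differed between the zones as well. All 22 tested of a list of 28 were higher in inner than in outer zone controls, with a median log2 difference of 0.85, against 20.7% of all genes. The part of this difference in the zone results of the 41 genes was not tested.

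**Figure D4:**
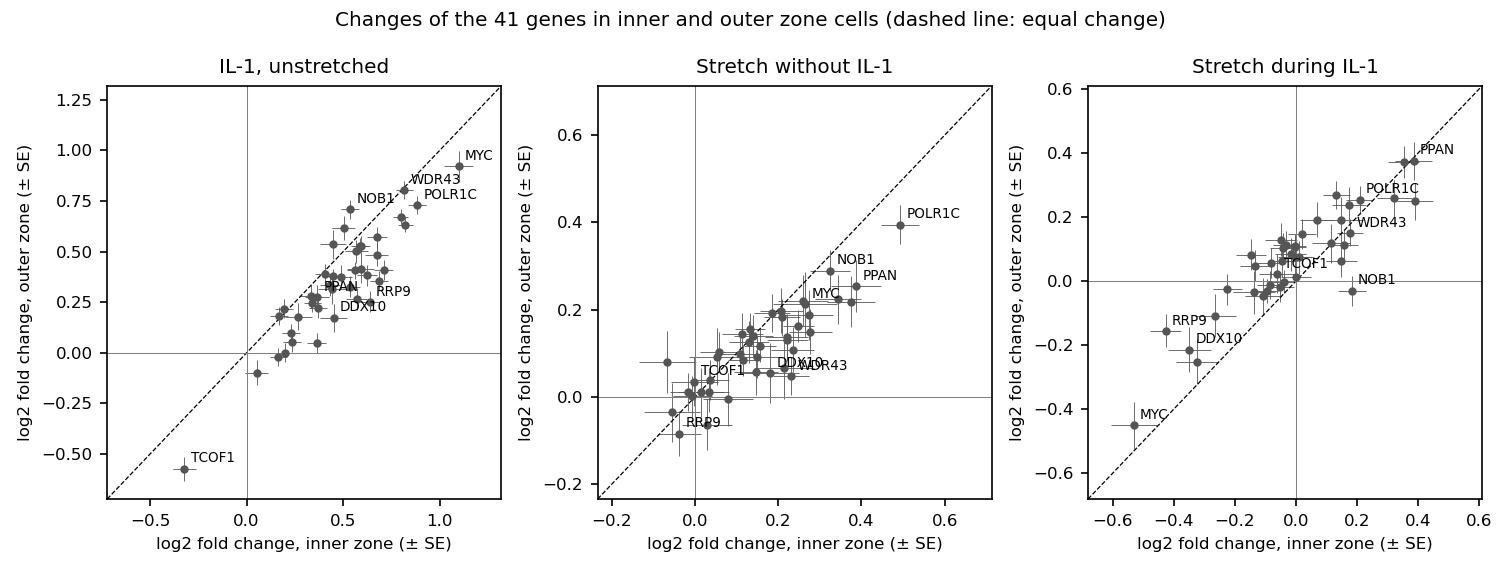
Log2 fold change in outer zone cells (vertical axes) against inner zone cells (horizontal axes), ± SE, for the 41 genes with IL-1α in unstretched cells, stretch without IL-1α and stretch during IL-1α. The dashed line marks equal change. In the left panel most points lie below the line of equal change, among them RRP9 (0.64 inner, 0.25 outer), and TCOF1 lies at the lower left.

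The zone difference in the IL-1α response of unstretched cells was tested directly. It was positive, meaning a higher change in inner zone cells, for 8 of the 41 genes and negative for 0, when 5.41% of all genes were higher and 3.82% lower in it, with a median of 0.13 beside 0.02. At an unadjusted p under 0.05, 1 gene was negative, and DESeq2 called 6 positive and 0 negative. RRP9 had the largest difference (0.39 ± 0.07, edgeR adjusted p = 0.000343). BYSL (0.33 ± 0.07, edgeR adjusted p = 0.00108), NOC2L (0.31 ± 0.07, edgeR adjusted p = 0.00184), NOP2 (0.30 ± 0.08, edgeR adjusted p = 0.0102) and RRP12 (0.30 ± 0.07, edgeR adjusted p = 0.00379) followed, with GRWD1 and DDX21 below 0.25. TCOF1 passed the test narrowly (0.25 ± 0.08, edgeR adjusted p = 0.0489), its decrease being smaller in the inner zone, and its call was lost in 9 of 12 fits that left out 1 library (log2 0.18 to 0.27). The difference for MYC did not pass the test (0.18 ± 0.11, edgeR adjusted p = 0.358). The count was 5 without inner zone IL-1α replicate 1 or outer zone control replicate 6. For the stretch response during IL-1α, 1 of the 41 genes was lower and 0 were higher in the inner zone than in the outer zone (0.996% and 1.33% of all genes, median -0.08 beside -0.01). That gene was RRP9 (-0.27 ± 0.07, edgeR adjusted p = 0.0363), whose call was lost in 7 of 12 fits that left out 1 library (log2 -0.28 to -0.23). At an unadjusted p under 0.05, 1 gene was higher in this term, and DESeq2 called 0 higher.

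Genes of the same process outside the 44 were counted for comparison. Of 71 other ribosome biogenesis genes tested, IL-1α raised 54 and lowered 2 in inner zone cells (median 0.31) and raised 47 and lowered 9 in outer zone cells (median 0.21), when 32.6% and 31.1% of all genes were higher and 32.8% and 33.5% lower. Their largest change in inner zone cells was that of WDR74, a large subunit factor (0.97 ± 0.06, edgeR adjusted p = 8.65e-17), and in outer zone cells that of BRIX1, also of the large subunit (0.87 ± 0.05, edgeR adjusted p = 4.02e-16). With upper-quartile scaling the counts with IL-1α were 38 higher and 11 lower in inner and 29 higher and 17 lower in outer zone cells. Stretch alone raised 24 and lowered 1 of the 71 in inner and raised 24 and lowered 3 in outer zone cells, when 10.6% and 11% of all genes were higher and 9.29% and 10.3% lower. Stretch during IL-1α raised 12 and lowered 11 in inner zone cells, near the 16.6% and 18.1% of all genes, and raised 21 and lowered 5 in outer zone cells, against 13.1% and 15.1%. Their interaction term was lower in 14 and higher in 2 in inner zone cells (11% and 8.66% of all genes) and lower in 4 and higher in 5 in outer zone cells (7.76% and 5.4%). Upper-quartile scaling gave 22 higher and 6 lower for stretch during IL-1α in inner and 32 higher and 2 lower in outer zone cells.

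With IL-1α 32.6% of all genes were higher in inner and 31.1% in outer zone cells. All 23 tested ribosomal proteins of the small subunit rose with it in each zone (medians 0.30 and 0.20). So did 22 of 23 tested ribosomal proteins of the large subunit in each zone (0.28 and 0.19). These counts depended on the scaling, since upper-quartile scaling left 19 of the 23 small subunit and 17 of the 23 large subunit proteins higher in inner zone cells (medians 0.12 and 0.10) and 4 and 3 of them in outer zone cells (medians 0.02 and 0.01), with 0 lower. RPS16 had the largest change of these proteins (0.47 ± 0.04 and 0.32 ± 0.03, edgeR adjusted p = 4.63e-14 and 5.15e-10). Stretch alone raised 3 of 23 and 1 of 23 in inner zone cells and 0 of 23 and 2 of 23 in outer zone cells. These counts are near or under the share over all genes (10.6% higher in inner and 11% in outer zone cells). In untreated cells 22 of the 23 small subunit and 22 of the 23 large subunit proteins were lower in the inner than in the outer zone (medians -0.17 and -0.16). Of all genes, 24.3% were lower in that comparison. Ribosomal protein genes have many near-identical pseudogene copies, so their counts from uniquely mapped reads are uncertain.

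**Figure D5:**
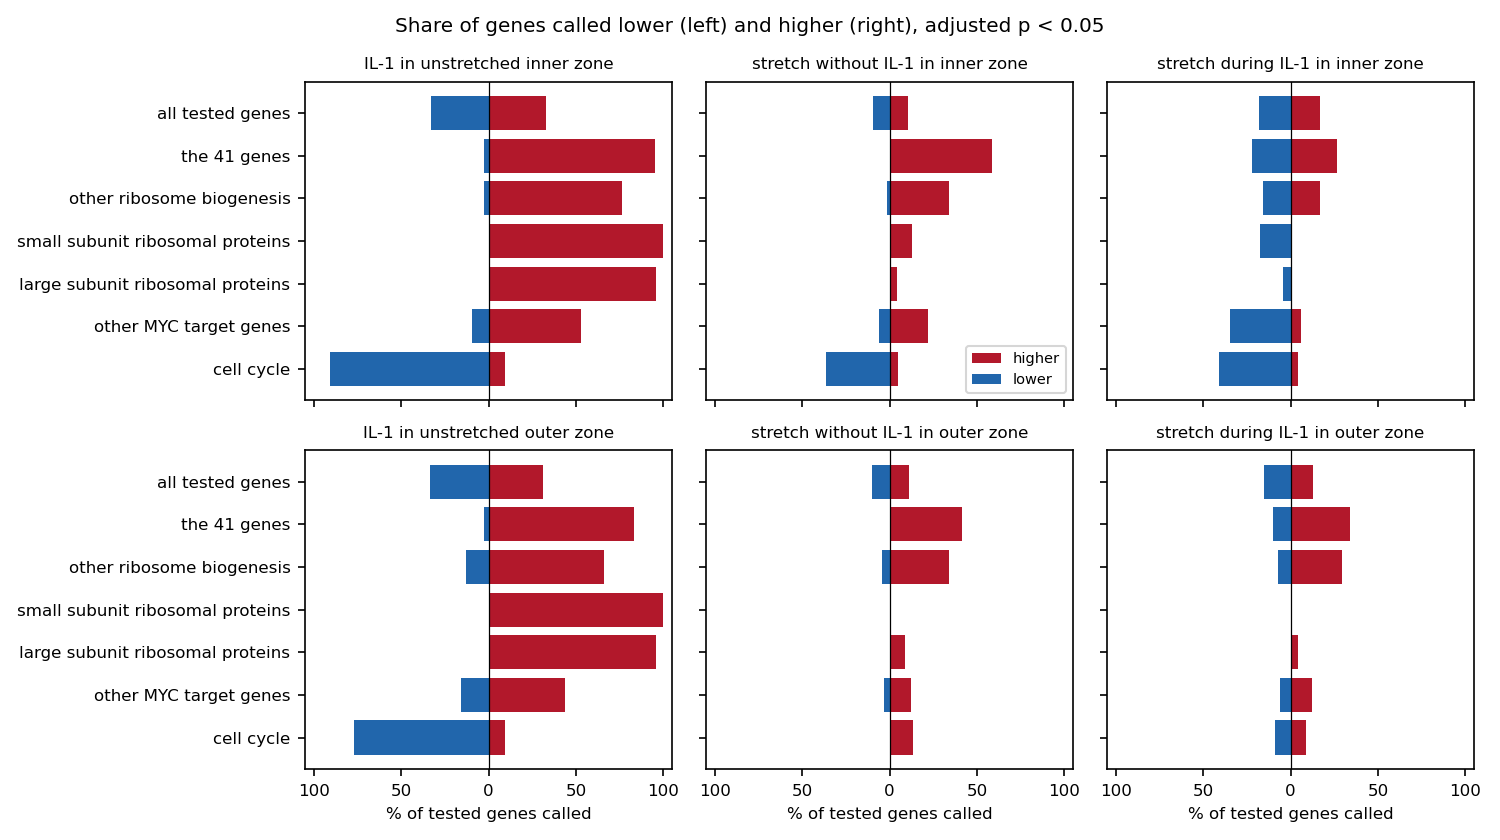
Share of tested genes called higher (red, right) and lower (blue, left) at an adjusted p under 0.05, in percent, for all 13653 tested genes, the 41 genes and 5 other gene lists, in 6 comparisons. With IL-1α the ribosome lists extend mostly to the right and the cell cycle list mostly to the left, and in stretch during IL-1α the 41 genes extend to both sides.

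Of 10 other RNA polymerase I factors tested, 4 were higher and 3 lower with IL-1α in inner zone cells and 5 higher and 2 lower in outer zone cells, when 32.6% of all genes were higher and 32.8% lower in inner and 31.1% and 33.5% in outer zone cells. TWISTNB, a polymerase subunit, rose by 1.21 ± 0.06 and 0.86 ± 0.06 (edgeR adjusted p = 8.18e-19 and 1.04e-14), and UBTF, the gene of the ribosomal DNA factor UBF, fell by 0.66 ± 0.06 and 0.59 ± 0.06 on the log2 scale (edgeR adjusted p = 2.95e-11 and 2.98e-10), in the same direction as TCOF1. Stretch raised 5 of the 10 and lowered 0 in each zone without IL-1α, and raised 4 and 5 and lowered 0 with it. Of all genes, 10.6% and 11% were higher without IL-1α and 16.6% and 13.1% with it, in inner and outer zone cells.

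Of 12 other MYC network genes tested, 5 were higher and 4 lower with IL-1α in inner zone cells and 4 higher and 5 lower in outer zone cells, against 32.6% and 32.8% of all genes in inner and 31.1% and 33.5% in outer zone cells. MAX, the obligate partner of MYC, rose with IL-1α by 1.11 ± 0.06 and 1.05 ± 0.05 (edgeR adjusted p = 2.43e-18 and 8.36e-18) and fell with stretch both without IL-1α (-0.19 ± 0.06 and -0.26 ± 0.06, edgeR adjusted p = 0.0173 and 0.000727) and with it (-0.72 ± 0.05 and -0.62 ± 0.05, edgeR adjusted p = 1.95e-12 and 7.55e-11). MXD1, which competes with MYC for MAX and represses transcription, rose by 2.35 ± 0.16 and 2.28 ± 0.16 with IL-1α (edgeR adjusted p = 5.97e-10 and 6.11e-10) and changed by -2.03 ± 0.16 and -1.48 ± 0.15 when stretch was added (edgeR adjusted p = 1.89e-08 and 6.67e-07). MNT, another repressor of this kind, changed in the opposite direction with IL-1α (-1.10 ± 0.10 and -0.86 ± 0.08, edgeR adjusted p = 5.71e-12 and 2.32e-11) and rose with stretch during IL-1α in inner zone cells (0.87 ± 0.10, edgeR adjusted p = 1.48e-08), with 0.08 ± 0.09 in outer zone cells. MXD3 and MXD4 fell with IL-1α in both zones (log2 -0.96 ± 0.09 and -0.51 ± 0.11 for MXD3, -0.37 ± 0.06 and -0.52 ± 0.06 for MXD4, largest of these 4 edgeR adjusted p = 0.000107), and MXI1 was called in neither zone for IL-1α in unstretched cells (0.09 ± 0.16 and 0.05 ± 0.14). Of 32 other MYC target genes outside ribosome assembly, IL-1α raised 17 and lowered 3 in inner and raised 14 and lowered 5 in outer zone cells, and stretch during IL-1α raised 2 and lowered 11 in inner zone cells (16.6% and 18.1% of all genes) and raised 4 and lowered 2 in outer zone cells (13.1% and 15.1%). With upper-quartile scaling IL-1α raised 13 and lowered 11 of these 32 in inner and raised 11 and lowered 16 in outer zone cells, and stretch during IL-1α raised 2 and lowered 6 and raised 7 and lowered 2. Cell cycle genes, by contrast, fell in 20 of 22 cases with IL-1α in inner and 17 of 22 in outer zone cells, with 2 that rose in each.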

How the data were processed

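Porcine meniscus cells were sequenced as 24 libraries made with a stranded mRNA kit, 3 per group. The authors trimmed reads with Trim Galore and cutadapt, aligned them with STAR to Sscrofa11.1, kept uniquely mapped reads and counted them per gene with HTSeq, and the deposited counts are raw whole reads per gene. Tool versions and the strand setting of the counting are not given in the sources used here. Totals of 25377054 to 35284474 reads per library set the counting precision. A deposited table of normalized counts was not used.

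Genes with 10 or more reads in any library (13653) entered a quasi-likelihood fit in edgeR 4.0.16, run under R 4.3.3 (TMM scaling, robust dispersion, 8 group means, 16 residual degrees of freedom), with Benjamini-Hochberg adjustment over all of them. The procedure was tested on simulated data. Alternatives were RLE and upper-quartile scaling, DESeq2 1.42.0, other filters, a fit per zone, a block for the well number, a fold bound and each library left out. The 41 genes and all lists were chosen with earlier results of these data known. Values in every library are given for MYC, for the gene of each role with the highest mean CPM, and for the genes with the 2 largest changes among those called in any comparison, with a mean of at least 5 CPM in the higher group. Replicates differed by more than counting noise (chi-square per degree of freedom 2.43 to 11.4), so no library was a duplicate. RefSeq gave gene positions and start regions.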

Additional observations from a re-analysis of the deposited data

Results flagged for a closer look

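The stretch effect differed between cells with and without IL-1α, by a test of the interaction term, for 15 genes in inner zone cells. These were NOP2 (-0.27), GRWD1 (-0.26), MYC (-0.79), PES1 (-0.24), DDX21 (-0.25), RRP12 (-0.26), GNL3 (-0.22), DDX10 (-0.53), NPM1 (-0.15), RRP9 (-0.39), NOC2L (-0.35), BYSL (-0.19), POLR1C (-0.28), GNL2 (-0.25) and MRTO4 (-0.24), each value being the stretch effect with IL-1α minus that without it on the log2 scale.

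In outer zone cells the same test singled out NOB1 (-0.32), MYC (-0.66), RRS1 (0.22) and LYAR (-0.33). MYC was the gene found in both zones.

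The IL-1α response of unstretched cells differed between zones, by a test of that difference, for NOP2 (0.30), GRWD1 (0.24), DDX21 (0.19), RRP12 (0.30), TCOF1 (0.25), RRP9 (0.39), NOC2L (0.31) and BYSL (0.33), each value being the inner zone response minus the outer zone response. For the stretch response during IL-1α the same kind of test singled out RRP9 (-0.27). No group had 4 or more libraries, so no single library was examined for standing apart from its group.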

How the results depend on the processing

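With a bound of 2-fold on each call, MYC with IL-1α in unstretched inner zone cells was the 1 gene that remained, and each of the other 15 comparisons held 0 of the 41 genes. With genes of at least 1 read in any library tested, 2 of the 41 genes rather than 1 were called for the zone difference in the stretch response during IL-1α, and the inner against outer zone comparison with IL-1α had 10 higher and 5 lower. Upper-quartile scaling turned DDX10 with IL-1α in unstretched outer zone cells to -0.0053 and DKC1 with IL-1α in stretched inner zone cells to -0.0035 on the log2 scale. Directions of single calls were compared only for the genes whose values in every library are given. Among the calls of those genes no other alternative turned the direction. The cause was not tested.

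Leaving out 1 library at a time gave 40 to 40 and 33 to 36 called genes for IL-1α in unstretched inner and outer zone cells, 31 to 35 and 33 to 34 in stretched cells, 19 to 24 and 11 to 19 for stretch without IL-1α, 15 to 18 and 12 to 18 for stretch during IL-1α, and 10 to 18 and 2 to 4 for the interaction. Between zones it gave 15 to 19 in untreated, 10 to 16 in stretched, 13 to 19 in IL-1α treated and 10 to 19 in cells with both, 5 to 10 for the zone difference in the IL-1α response and 0 to 3 for that in the stretch response during IL-1α. Single calls were followed in these fits for the genes whose values in every library are given. Of 165 calls of those genes, 130 held in every such fit and 35 were lost in at least 1. Calls of the other genes are not part of these totals.

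Well numbers share only a number, since deviations of same-numbered wells correlated at -0.08 to 0.07 in both zones. With the replicate block the counts were 40 and 35 for IL-1α in unstretched inner and outer zone cells, 35 and 33 in stretched cells, 24 and 18 for stretch alone, 19 and 18 for stretch during IL-1α, 17 and 4 for the interaction, and 7 and 1 for the zone differences. MYC after stretch in outer zone cells was then 0.21 (edgeR adjusted p = 0.0917). With 3 wells per group, small differences between wells limit what can be detected.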

Other observations

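NOP56, a core protein of the box C/D particles, is not a gene name in the count table, but RefSeq's table pairs it with an Ensembl identifier there (ENSSSCG00000027676). This gene was chosen after the list had been matched. It rose with IL-1α by 0.64 ± 0.05 in the inner zone and 0.51 ± 0.05 in the outer zone (edgeR adjusted p = 4.63e-14 and 1.44e-11) and with stretch alone by 0.31 ± 0.05 and 0.30 ± 0.05 (edgeR adjusted p = 7.25e-06 and 7.72e-06). Stretch during IL-1α gave 0.08 ± 0.05 in inner zone cells, which was not called (edgeR adjusted p = 0.195), and 0.25 ± 0.05 in outer zone cells (edgeR adjusted p = 6.5e-05). The interaction of NOP56 was -0.23 ± 0.07 in inner zone cells (edgeR adjusted p = 0.0132).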
